A study of Mus musculus with 34 samples.

Results

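The regions described here were distal H3K27ac peaks that appeared with LPS in CTCF-WT bone marrow-derived dendritic cells (BMDCs) and were not overlapped by a p65 peak. They were chosen by the deposited H3K27ac and p65 peak lists themselves. Of 77050 H3K27ac peaks in the LPS-stimulated CTCF-WT list (WTLPS), 29989 were at least 500 bp wide and 5464 of those had no overlapping H3K27ac peak in the unstimulated list (WT). A WTLPS p65 peak was absent from 5097 of them, and 4342 also lay outside every promoter, taken as 2.5 kb on either side of the start of each gene's longest transcript. With the starts of all transcripts the number was 3994, so some of the 4342 lay at another annotated start. These 4342 peaks are called gained peaks without p65 below. They made up 22.0% of the 19777 distal WTLPS H3K27ac peaks of that width.

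The series held 30 ChIP-seq peak lists and 4 input samples from BMDCs grown for 6 days with GM-CSF from the marrow of 8-week-old C57BL/6 mice. All cells were treated with 4-OH tamoxifen. CTCF-WT cells carried CreER alone, and CTCF-KO cells carried CreER with floxed CTCF alleles (CreER;CTCF fl/fl), so both genotypes held the recombinase and met the drug. Cells received no stimulus (WT, KO) or 100 ng/ml LPS, a bacterial Toll-like receptor 4 ligand, for 3 h (WTLPS, KOLPS). The 2 STAT5 lists came from WT and KO cells given GM-CSF again for 15 min. Each condition and antibody had 1 list, so no spread between replicates could be measured. Intervals below are 95% intervals that cover counting error over peaks, and neighbouring peaks are not independent samples. All 11 dendritic and myeloid marker genes checked, among them Itgax, Csf2rb and Spi1, had an H3K4me3 peak at the promoter in every condition. So had 1 of 5 T-cell, 1 of 5 B-cell, 1 of 5 neutrophil, 1 of 4 mast-cell and 2 of 4 fibroblast markers.

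H3K27ac is laid down at active enhancers and promoters. H3K4me1 marks enhancers whether or not they are active, so a site that carries H3K4me1 without H3K27ac is commonly called primed, while H3K27me3 is the mark of Polycomb repression. SMC1 is a subunit of cohesin, the ring complex that extrudes chromatin loops and halts at CTCF, and it also collects at enhancers. Binding of LPS to its receptor releases NF-kB, of which p65 (RelA) is the main activating subunit, and starts AP-1 and interferon signalling as well. STAT5 is the factor through which GM-CSF acts.

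The motifs searched for in the middle of these regions belong to factors of myeloid cells and of LPS signalling. The sequences below show 1 region for each motif, namely the strongest one not yet shown that held it, with at most 50% repeat bases, among the 10 strongest gained peaks without p65 and those nearest to a gene of fixed inflammatory and myeloid gene lists. Each is the central 200 bp, taken from the GRCm38.p6 RefSeq assembly on the plus strand, with motif matches on either strand in capitals. They were picked for their matches, so they illustrate the motifs and carry no evidence for them.
Near Ch25h, chr19:34455229-34455428, AP-1 (TGANTCA) and RUNX (TGTGGT): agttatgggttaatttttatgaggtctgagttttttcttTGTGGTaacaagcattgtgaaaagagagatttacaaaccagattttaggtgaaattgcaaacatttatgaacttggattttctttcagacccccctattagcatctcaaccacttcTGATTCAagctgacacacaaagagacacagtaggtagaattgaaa
Near Fosl2, chr5:32163719-32163918, C/EBP (TTGCNNAA): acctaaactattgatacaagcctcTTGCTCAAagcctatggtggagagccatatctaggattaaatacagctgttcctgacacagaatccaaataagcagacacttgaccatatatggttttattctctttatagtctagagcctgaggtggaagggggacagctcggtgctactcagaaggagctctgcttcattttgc
In an intron near Ikzf1, chr11:11732498-11732697, PU.1 (GAGGAAG) and AP-1: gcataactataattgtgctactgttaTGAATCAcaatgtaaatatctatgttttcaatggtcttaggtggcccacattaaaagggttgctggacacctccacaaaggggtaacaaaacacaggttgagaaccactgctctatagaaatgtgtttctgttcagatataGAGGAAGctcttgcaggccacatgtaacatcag
In an intron near Urgcp, chr11:5745293-5745492, RUNX: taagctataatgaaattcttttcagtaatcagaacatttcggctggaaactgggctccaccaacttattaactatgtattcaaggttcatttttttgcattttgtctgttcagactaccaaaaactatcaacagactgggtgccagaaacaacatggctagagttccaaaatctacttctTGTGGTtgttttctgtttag
Near Extl2, chr3:116047007-116047206, STAT (TTCNNNGAA) and the NF-kB consensus: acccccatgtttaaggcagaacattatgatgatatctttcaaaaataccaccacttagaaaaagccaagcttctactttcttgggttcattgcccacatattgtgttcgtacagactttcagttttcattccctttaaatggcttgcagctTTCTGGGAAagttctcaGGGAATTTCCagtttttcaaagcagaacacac
Near Cited2, chr10:17676614-17676813, interferon response element (GAAANNGAAA): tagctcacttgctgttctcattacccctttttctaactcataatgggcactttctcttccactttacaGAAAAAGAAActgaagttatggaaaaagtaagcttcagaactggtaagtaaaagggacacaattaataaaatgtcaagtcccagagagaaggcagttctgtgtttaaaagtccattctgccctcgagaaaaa
Near Il12b, chr11:44396164-44396363, NF-kB consensus and RUNX: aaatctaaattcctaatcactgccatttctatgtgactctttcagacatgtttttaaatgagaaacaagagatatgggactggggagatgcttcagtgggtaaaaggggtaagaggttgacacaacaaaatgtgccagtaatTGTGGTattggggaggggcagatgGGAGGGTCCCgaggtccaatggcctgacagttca
Near Socs3, chr11:117948005-117948204, CTCF consensus core: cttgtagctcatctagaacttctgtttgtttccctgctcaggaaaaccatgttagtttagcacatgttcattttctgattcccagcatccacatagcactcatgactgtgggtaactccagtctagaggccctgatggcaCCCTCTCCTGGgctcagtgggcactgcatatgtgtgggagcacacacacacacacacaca

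Gained peaks without p65 were mostly narrow and weak peaks. Their median width was 662 bp (quartiles 562 and 854, widest 5320) and their median fold over background was 5.01, with a highest value of 13.8. Their median −log10 q was 4.98 (quartiles 4.10 and 6.86, highest 30.6). The fold and p that MACS2 reports for a peak together give back the number of fragments at its summit, which had a median of 10 over the 4331 of the 4342 peaks for which it could be recovered. Background coverage in that list was 1.20 fragments per base. For reference, 305 distal peaks that were equally absent from WT but overlapped by WTLPS p65 (gained peaks with p65) had a median width of 959 bp, a median −log10 q of 7.85 and 13 summit fragments. A further 13024 distal peaks had a WT H3K27ac peak and no p65 (kept peaks), with medians of 900 bp, 7.09 and 12. Width and strength therefore differ between these sets beside every share below. Some shares were also taken in the central 500 bp, or between the −log10 q quartiles of gained peaks without p65.

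The edges of the rule were gradual. Among regions that met the other criteria, the 895 that exceeded the width threshold by less than 50 bp and the 1204 that fell short of it by at most 50 bp had the same median −log10 q of 4.10. WT H3K4me1 was at 77.4% of the first and 72.8% of the second. Absence from WT was also a matter of position: the median distance from a gained peak without p65 to the nearest WT H3K27ac peak was 1493 bp, and 1774 of them (40.9%) lay within 1000 bp of one. Of the distal WTLPS H3K27ac peaks, 23.5% lacked a WT peak, a share that the rule itself used. No WT peak means that none was called there, not that WT cells lacked the mark. WT and WTLPS lists had near-equal background coverage, at 1.17 and 1.20 fragments per base.

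Most gained peaks without p65 lay in chromatin that already carried the enhancer mark. WT H3K4me1 overlapped 3363 of 4342 (77.5%, interval 76.2 to 78.7), while the share over all distal peaks was 90.0%. It overlapped 93.4% of gained peaks with p65, a difference of -16.0 percentage points (interval -18.6 to -12.4), and 92.6% of kept peaks. With both gained sets limited to the quartile range of −log10 q the difference was -12.0 points (interval -16.5 to -5.33). After LPS the share was close to that before: WTLPS H3K4me1 overlapped 77.9% (90.3% of all distal peaks), with 264 peaks that had H3K4me1 after LPS alone and 243 that had it before LPS alone. H3K4me1 was in neither list at 715 (16.5%).

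Cohesin was scarce at these regions before LPS. WT SMC1 overlapped 586 of them (13.5%, interval 12.5 to 14.5), against 42.0% of all distal peaks, 45.9% of gained peaks with p65 and 43.8% of kept peaks. The difference from gained peaks with p65 was -32.4 points (interval -38.1 to -26.8), or -17.2 points (interval -22.5 to -12.4) when the central 500 bp of each peak was searched. SMC1 without CTCF was the commoner form, at 376 regions, and SMC1 together with CTCF was at 210. A further 146 had CTCF without SMC1. These combinations were not counted over all distal peaks, so they cannot be called particular to these regions. In all, WT CTCF overlapped 356 (8.20%, interval 7.42 to 9.05), with 11.3% over all distal peaks. CTCF was the factor for which the 2 gained sets did not separate: 7.21% of gained peaks with p65 held it, a difference of 0.986 points with an interval from -2.57 to 3.53.

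STAT5 and the other histone marks were rare as well. WT STAT5 overlapped 136 gained peaks without p65 (3.13%, interval 2.65 to 3.69), where the share of all distal peaks was 12.3%. It overlapped 14.4% of gained peaks with p65, a difference of -11.3 points (interval -15.7 to -7.75), or -5.93 points (interval -9.53 to -3.37) in the central 500 bp. Of the 136 regions, 134 also held WT H3K4me1 and 48 held WT SMC1, and their median −log10 q was 6.86. H3K4me3, the promoter mark, was at 163 (3.75%), with 14.3% over all distal peaks. H3K27me3 was at 296 (6.82%, interval 6.10 to 7.61), above the 3.20% of all distal peaks and the 1.96% of kept peaks. It was at 8.52% of gained peaks with p65, a difference of -1.71 points with an interval from -5.45 to 1.05, so the 2 gained sets did not separate. In 164 of the 296 it lay beside H3K4me1. Of the 4342 regions, 2651 (61.1%) held H3K4me1 and none of SMC1, CTCF and STAT5 before LPS, and 877 (20.2%) held none of the 4. Combinations of marks and factors were counted in this set alone. Whether they differ from those of all distal peaks was not tested.

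**Figure D1:**
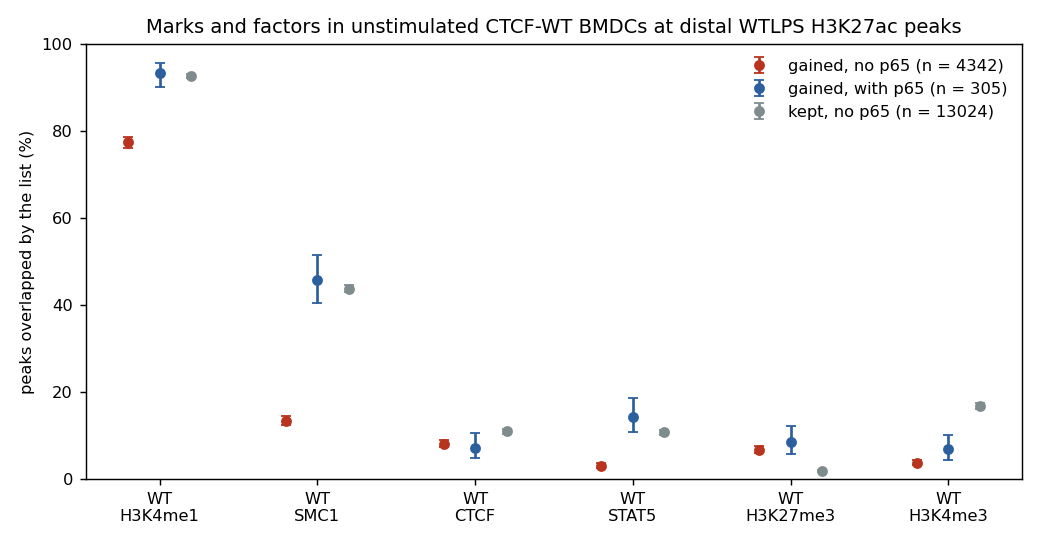
Share of distal WTLPS H3K27ac peaks (y axis, %) overlapped by a peak of each WT list (x axis), for 4342 gained peaks without p65, 305 gained peaks with p65 and 13024 kept peaks. Points are shares and bars 95% Wilson intervals; H3K4me1 is at 77.5% of the gained peaks without p65 and SMC1 at 13.5%, both under the other sets.

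SMC1 and H3K27me3 at these regions differed before and after LPS in CTCF-WT cells. WTLPS SMC1 overlapped 825 (19.0%) against 44.3% of all distal peaks: 386 regions had SMC1 after LPS alone and 147 before LPS alone, a paired difference of 5.50 points (interval 4.48 to 6.53). Over the genome the SMC1 lists covered 36.7 Mb before and 35.5 Mb after LPS. At kept peaks the same difference was -0.668 points (interval -1.34 to 0.00743), while at gained peaks with p65, 122 regions gained SMC1 and 0 lost it (interval of the difference 34.5 to 45.5 points). H3K27me3 was at 296 regions before and 146 after LPS, with 1.46% of all distal peaks overlapped after LPS. The H3K27me3 lists themselves covered 117 Mb before and 56.7 Mb after LPS, so the fall at these regions moved with the list. CTCF was at 315 regions after LPS (7.25%), where 9.81% of all distal peaks held it.

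In CTCF-KO cells SMC1 and CTCF were at fewer of these regions. KO CTCF overlapped 79 of the 4342 regions (1.82%, with 3.64% of all distal peaks) and KOLPS CTCF 37 (0.852%, with 1.92%). Over the genome the CTCF lists held 60537 peaks in WT and 20151 in KO. KO SMC1 was at 286 regions (6.59%, with 32.7% of all distal peaks) and KOLPS SMC1 at 187 (4.31%, with 24.4%). Between KO and KOLPS, SMC1 went the other way: 74 regions had it after LPS alone and 173 before LPS alone. The paired difference was -2.28 points (interval -2.99 to -1.57), and the SMC1 lists covered 14.9 Mb in KO and 7.49 Mb in KOLPS. At kept peaks the same difference was -11.5 points (interval -12.2 to -10.8). At gained peaks with p65 it was 3.61 points (interval -1.05 to 8.27). Of the 376 regions that held SMC1 without CTCF in WT, 39.6% held SMC1 in KO, and of the 210 that held both, 21.4% did. Matching shares over all distal peaks were not computed. KO STAT5 was at 119 regions (2.74%, with 9.75% of all distal peaks), 94 of them shared with WT. H3K4me1 was at 72.7% in KO, with 87.8% of all distal peaks. KOLPS H3K4me1 overlapped 57.9%, with 77.8% of all distal peaks, while those lists covered 232 and 149 Mb. The part of the shorter lists in these falls was not tested.

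**Figure D2:**
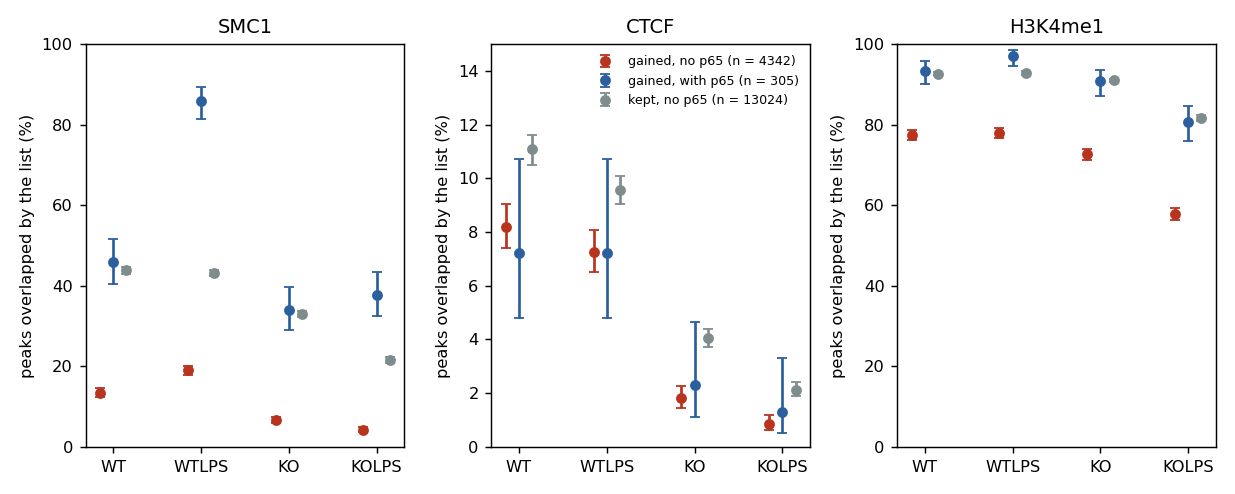
Share of distal WTLPS H3K27ac peaks (y axes, %; scales differ) overlapped by SMC1, CTCF and H3K4me1 in the 4 conditions (x axes), for the same 3 sets, with 95% Wilson intervals. SMC1 at gained peaks without p65 went from 13.5% to 19.0% with LPS in CTCF-WT cells and from 6.59% to 4.31% in CTCF-KO cells.

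H3K27ac in CTCF-KO cells was found at a minority of these regions, and at more of them after LPS. A KO H3K27ac peak overlapped 873 (20.1%, interval 18.9 to 21.3), with 59.8% over all distal peaks, and a KOLPS peak 1425 (32.8%, interval 31.4 to 34.2), with 62.1% over all distal peaks. Both were below the kept peaks, at 68.0% and 66.1%, and below the gained peaks with p65, at 45.9% and 76.7%. Kept peaks were chosen for a WT H3K27ac peak, which 76.5% of all distal peaks had, and both gained sets for lacking one. The lower KO share than in kept or all distal peaks is therefore partly built into the sets. The KOLPS difference from gained peaks with p65 was -43.9 points (interval -48.5 to -38.7). It was -32.5 points (interval -40.8 to -23.5) between peaks of the same strength range. Background coverage recovered from the lists was lower in CTCF-KO cells, at 0.748 fragments per base in KO and 0.801 in KOLPS. Read totals that the study states for the WTLPS and KOLPS H3K27ac libraries are close to each other. Why the background coverage differs was not tested. When each gained peak without p65 was weighted by its chance of still being called after thinning to the KOLPS coverage, 3850 of the 4342 were expected to stay and the KOLPS share was 33.8%. That chance took the WTLPS summit count as the true level. The peaks were chosen for being called in WTLPS and not in WT, so their counts may lie above it. The expected number may then be too high, so the thinning cannot settle the part of coverage in the KOLPS share.

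At these regions H3K27ac was called more often in KOLPS than in KO, the direction that the rule set in CTCF-WT cells. A KOLPS peak without a KO peak was at 843 regions (19.4%, interval 18.3 to 20.6), which was 12.3% over all distal peaks. The reverse, a KO peak alone, was at 291, both were present at 582 and neither at 2626. The paired difference, KOLPS minus KO, was 12.7 points (interval 11.2 to 14.2), while the H3K27ac lists covered 41.3 Mb in KO and 32.4 Mb in KOLPS. At kept peaks the difference was -1.90 points (interval -2.72 to -1.07), and at gained peaks with p65 it was 30.8 points (interval 24.8 to 36.8). The opposite set behaved in the opposite way: of 4324 distal WT peaks with no WTLPS H3K27ac and no WTLPS p65, 53.1% had a KO peak and 27.7% a KOLPS peak, a difference of -25.3 points (interval -27.0 to -23.7).

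Shares in CTCF-KO cells increased with the strength of the WTLPS peak. In the weakest of 5 bands, with −log10 q from 1.47 to 3.29 (n = 871), KO and KOLPS H3K27ac overlapped 15.0% and 21.8%. In the strongest, from 7.68 to 30.6 (n = 868), they overlapped 25.1% and 49.7%. The gap between KOLPS and KO was wider in the stronger peaks. Prior H3K4me1 went from 70.3% to 84.1% and WTLPS SMC1 from 10.7% to 30.1% over the same bands, so several properties moved with strength together. In the strongest band 88.2% of 161 gained peaks with p65 had a KOLPS peak.

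**Figure D3:**
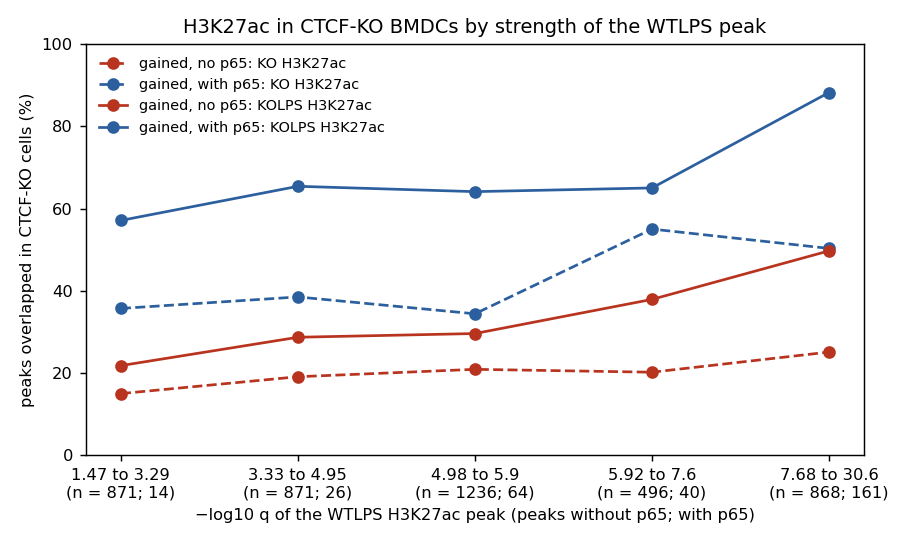
Share of gained peaks overlapped by H3K27ac in KO (dashed) and KOLPS (solid) cells (y axis, %) by the −log10 q of the WTLPS peak in 5 bands (x axis), without p65 in red and with p65 in blue; lines join bands and have no error bars. Without p65 the KOLPS share went from 21.8% to 49.7% and the KO share from 15.0% to 25.1%.

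The prior state of a region went with its H3K27ac in CTCF-KO cells. Where WT H3K4me1 was present, 23.3% had a KO peak and 35.2% a KOLPS peak, and where H3K4me1 was in neither WT nor WTLPS, 8.25% and 22.4% did. Regions with WT SMC1 and no CTCF had 38.8% and 44.9%. The 48 regions with both STAT5 and SMC1 had 54.2% (interval 40.3 to 67.4) and 70.8% (interval 56.8 to 81.8). Over all distal peaks these shares were 59.8% and 62.1%. The median −log10 q of the 48 regions was 6.86, and the part of strength in their shares was not tested. Regions with H3K27ac in KOLPS alone were set beside those with no H3K27ac in either CTCF-KO list. WT SMC1 was at 12.8% and 10.7% (difference 2.15 points, interval -0.279 to 4.82), and WT CTCF at 9.02% and 7.92% (difference 1.09 points, interval -0.972 to 3.43). WT H3K4me1 was at 77.5% and 73.3% (difference 4.12 points, interval 0.742 to 7.32), and WT STAT5 at 32 of 843 and 57 of 2626 regions (difference 1.63 points, interval 0.362 to 3.22). After LPS, WTLPS SMC1 was at 20.6% and 14.7% (difference 5.94 points, interval 2.99 to 9.09). The median −log10 q was 5.90 in the first class and 4.98 in the second.

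Applying the same rule to CTCF-KO cells gave far fewer regions. Of 9400 distal KOLPS H3K27ac peaks at least 500 bp wide, 650 (6.91%) had neither a KO H3K27ac peak nor a KOLPS p65 peak. Of these, 544 had a WTLPS H3K27ac peak, 355 had one in WT, and 71 (10.9%) overlapped a gained peak without p65. Those 71 reached 70 of the 4342 regions (1.61%). The KOLPS list had a median peak width of 242 bp against 392 bp in WTLPS, so the width threshold removed more of it.

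A p65 peak was often near although none overlapped. The nearest WTLPS p65 peak was at a median of 17826 bp, and 1760 regions (40.5%) lay within 10 kb of one, against 32.2% of kept peaks. Regions within 10 kb of p65 had KO H3K27ac at 26.4% and KOLPS H3K27ac at 43.5% (interval 41.2 to 45.9). The other 2582 had 15.8% and 25.5% (interval 23.9 to 27.2). Their median −log10 q was 4.98 in both, and WT H3K4me1 was at 76.2% and 78.3%. WTLPS SMC1 was at 19.3% and 18.8%. WT SMC1 was lower near p65, at 11.5% (interval 10.1 to 13.1) against 14.8% (interval 13.5 to 16.3), and WT STAT5 was at 2.39% and 3.64%. The part of these in the H3K27ac shares was not tested.

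By sequence, the central 500 bp of the gained peaks without p65 were AT-rich, with a median GC content of 39.4% against 42.2% in both other sets. The assembly marked a mean of 27.8% of their bases as repeats, and over 50% of the window in 15.5% of regions, against 11.8% of kept peaks. Those regions had KOLPS H3K27ac at 28.8% and the rest at 33.6%. Motifs were searched on both strands in that window. Any of the 8 motifs was found in 74.2% of gained peaks without p65, 79.0% of gained peaks with p65 and 76.7% of all distal peaks.

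The NF-kB consensus was less frequent than in the other sets. It was in 4.77% of gained peaks without p65, 9.84% of those with p65 and 7.76% of all distal peaks, and the difference between the gained sets was -5.07 points (interval -8.97 to -2.13). The rule split the gained sets by p65 itself, so this difference is no separate support for the split. The part of the lower GC content in the motif shares was not tested. AP-1, the site of Fos and Jun dimers, was in 15.7%, with 21.0% in gained peaks with p65 and 17.3% in all distal peaks (difference -5.30 points, interval -10.3 to -0.960). PU.1, the factor that defines myeloid enhancers, had matches in 12.7%, 17.0% and 16.7%. Against kept peaks its difference was -4.62 points (interval -5.78 to -3.41), and -3.65 points within the quartile range of −log10 q (interval -5.25 to -1.98). C/EBP was in 21.9%, with 21.2% of all distal peaks. RUNX was in 34.5% against 35.4%, and STAT in 17.6% against 17.7%.
Interferon response elements were in 436 gained peaks without p65, with a share of 9.60% over all distal peaks. Their excess over kept peaks was 0.521 points (interval -0.481 to 1.57), and 1.97 points within the quartile range of −log10 q (interval 0.611 to 3.41). The CTCF consensus core was in 3.82%, with 4.52% of all distal peaks, and it was in 48.4% of the 200 bp windows around WT CTCF summits. Of the 166 gained peaks without p65 that held the core, 32.5% had a WT CTCF peak, and 7.23% of the rest did. The core pattern was set on CTCF summits, so these shares are not independent of the CTCF lists. WT STAT5 was at 6.15% of regions with a STAT match and 2.49% of the rest. H3K27ac in KOLPS was at 42.5% of the 207 regions with an NF-kB match and 32.3% of the rest (difference 10.2 points, interval 3.48 to 17.1). For PU.1 it was at 38.6% and 32.0% (difference 6.61 points, interval 2.36 to 11.0). For the other 6 of the 8 motifs the interval held 0, with differences from -3.59 points for the interferon response element to 5.34 points for the CTCF core. A match is a run of letters and does not show that a factor bound.

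**Figure D4:**
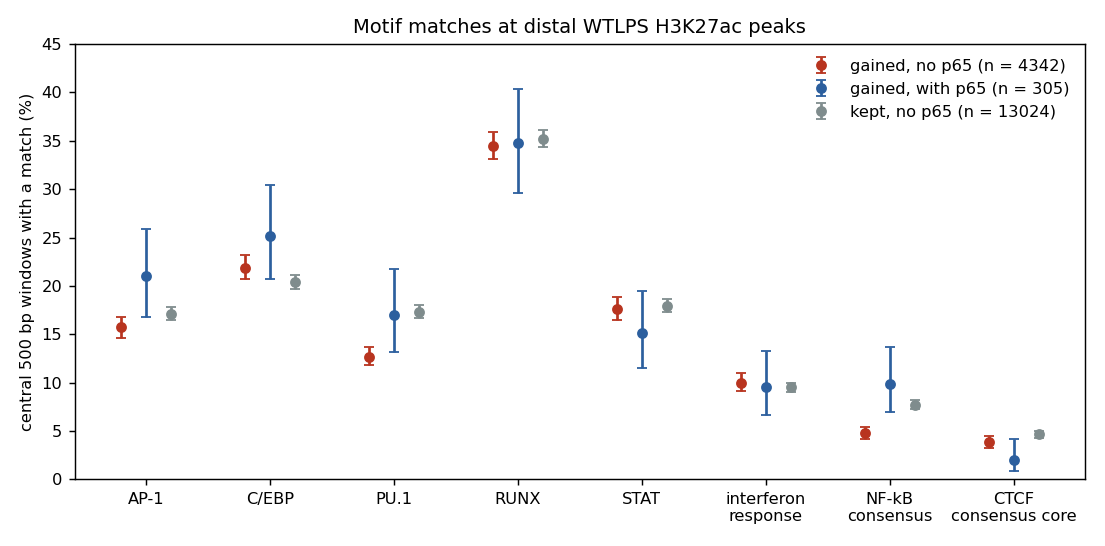
Share of central 500 bp windows with at least 1 match of each motif on either strand (y axis, %), for the same 3 sets, with 95% Wilson intervals. NF-kB matches were in 4.77% of gained peaks without p65 and 9.84% of those with p65, while RUNX and STAT shares overlapped.

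The regions were spread over the genome and often grouped. Introns held 2163 (49.8%), exons touched 398 (9.17%) and 1781 (41.0%) were outside annotated genes. Joined across gaps of up to 12.5 kb they formed 2932 domains, of which 2180 were single peaks and 144 held 4 or more. Chromosome 16 had the highest share among the distal peaks of a chromosome, with 311 of 1049 (29.6%). The largest domain, of 17 regions, was at chr16:65350132-65422411, nearest to Pou1f1, a pituitary factor with no H3K4me3 peak at its promoter in any condition. In it 1 of the 17 regions had a KOLPS H3K27ac peak. A second domain near Pou1f1, at chr16:65460841-65503040, held 13 regions, 6 with KOLPS and 4 with KO H3K27ac. Domains of 16 regions were found at chr3:68592626-68646776 near Il12a, at chr10:19173217-19223904 near Olig3 and Tnfaip3 and at chr7:74640810-74696575 near Slco3a1. KOLPS H3K27ac was at 9, 7 and 10 of their 16 regions. Domains were given to the nearest coding start at any distance, while the gene counts below take only regions within 100 kb. The Tnfaip3 start, at chr10:19015376, is farther than 100 kb from that domain. The Pou1f1 start, at chr16:65520512, is farther than 100 kb from most of the domain of 17.

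The nearest protein-coding start site was within 100 kb for 3333 of the 4342 regions, at 1889 genes. That was 8.62% of coding genes. Cytokine and chemokine genes drew more regions than their share of all distal peaks: 19 of 32 annotated genes of that list were nearest to at least 1 region, and they drew 84 regions (1.93%, interval 1.57 to 2.39). Their share was 0.819% over all distal peaks, 0.376% of kept peaks and 1.64% of gained peaks with p65 (5 peaks), which lies within that interval. Kept peaks were nearest to 18 of the 32 genes. Of the 84 regions, 17 were nearest to Il12a, 13 to Il6 and 8 each to Csf1 and Tnfsf15. The interval counts such neighbouring regions as separate, so the higher share rests in good part on a few loci. Of those 84 regions, 18 had a KO and 49 a KOLPS H3K27ac peak. LPS-induced enzymes had regions at 12 of 19 genes, with 0.829% of the regions against 0.546% of all distal peaks. NF-kB subunits and feedback genes had them at 9 of 19 (0.852% against 0.718%) and Toll-like receptor pathway genes at 9 of 21 (0.392% against 0.369%). Kept peaks were nearest to 11, 14 and 11 genes of these lists. Myeloid and dendritic cell transcription factors had them at 15 of 28 genes, with 31 regions (0.714%, against 1.02% of all distal and 1.09% of kept peaks). Interferon response genes had them at 7 of 29 (0.230% of the regions against 0.142% of all distal peaks). AP-1 and early response factors had them at 7 of 26 (0.530% against 0.592%) and dendritic cell maturation genes at 5 of 19 (0.438% against 0.490%). Kept peaks were nearest to 11, 15 and 16 genes of these lists. Over all 8 lists, 257 regions (5.92%) were near 83 of 193 genes, with 4.69% of all distal peaks near a listed gene. The lists were drawn up with earlier results of these data known, and nearness does not show that a region acts on a gene.

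Inhba, which encodes the activin A subunit, had the most regions of any gene, with 21 between 3.38 and 98.3 kb from its start (gene at chr13:16011851-16031621). H3K4me1 was at 18 of them in WT, H3K27me3 at 6 and SMC1 at 2. In CTCF-KO cells H3K27ac was at 1 before and 10 after LPS. Counting all H3K27ac peaks within 100 kb of the Inhba start, WT held 3, WTLPS 53, KO 4 and KOLPS 57. Such counts are not levels of H3K27ac, because the lists differ in how peaks are cut: the median peak width was 392 bp in WTLPS and 242 bp in KOLPS, and the lists covered 59.6 and 32.4 Mb.

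Il12a, which encodes the p35 chain of interleukin-12, came next with 17 regions between 18.4 and 97.7 kb from its start (gene at chr3:68690644-68698547). Of these, 13 had WT H3K4me1, 8 WT H3K27me3, 5 WT SMC1 and 4 WT CTCF. KO H3K27ac was at 2 and KOLPS H3K27ac at 10. Within 100 kb lay 17 WT, 43 WTLPS, 10 KO and 43 KOLPS peaks of H3K27ac. WTLPS p65 peaks within 100 kb numbered 7, and KOLPS p65 peaks 0.

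Il6, Nfkbiz and Tnfaip3 had 13 regions each. Il6 encodes a pro-inflammatory cytokine. Around it were 54 WT, 47 WTLPS, 23 KO and 82 KOLPS peaks of H3K27ac, and 4 of its 13 regions had a KOLPS peak. Nfkbiz encodes an IkB protein needed for secondary response genes. Its surroundings held 19, 48, 21 and 35 peaks in the same order. Tnfaip3, which encodes the NF-kB inhibitor A20, held 67, 69, 66 and 106. At each of these 3 genes 4 or 5 regions were met by KOLPS H3K27ac. Macc1 had 13 regions, 8 of them with WT H3K27me3 and 2 with KOLPS H3K27ac. The promoter of its longest transcript had no H3K4me3 peak, and its other starts were not examined. Pou1f1 had 15 regions, 6 with KOLPS H3K27ac. Ch25h, which encodes the oxysterol-producing enzyme cholesterol 25-hydroxylase, had 12, all with WT H3K4me1 and 6 with KOLPS H3K27ac.

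**Figure D5:**
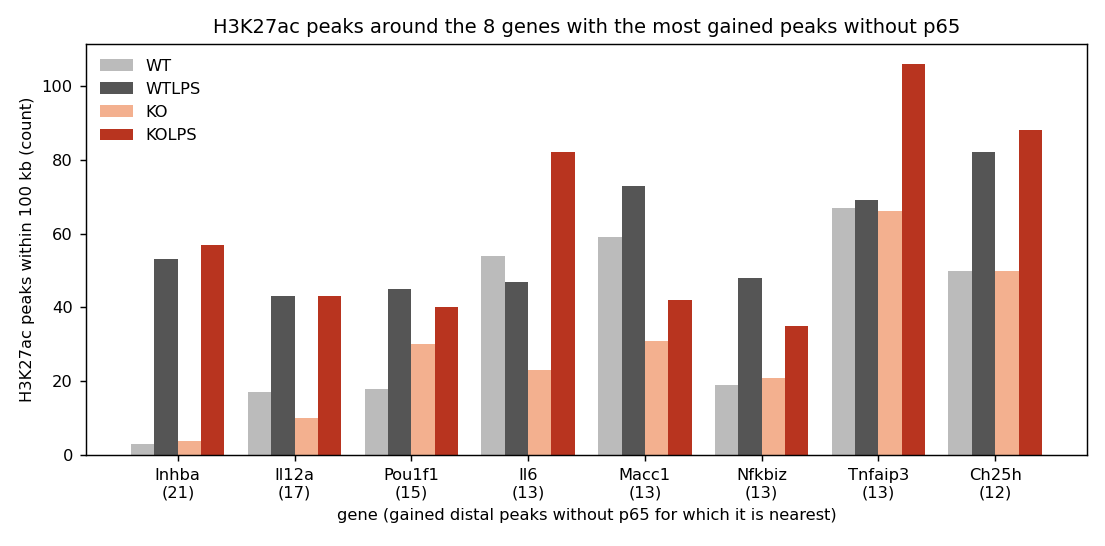
Number of H3K27ac peaks within 100 kb of the start site (y axis, count) of the 8 genes with the most gained peaks without p65 (x axis, number of such peaks in parentheses), in the 4 conditions; 1 list per condition, so no error bars, and counts rest on lists of different peak width (median 392 bp in WTLPS, 242 bp in KOLPS). Around Inhba the count went from 3 to 53 in CTCF-WT and from 4 to 57 in CTCF-KO cells. The genes were chosen for peaks called in WTLPS and not in WT, so a rise in CTCF-WT cells is partly built in.

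Other inflammatory genes had smaller sets. Csf1 and Tnfsf15 had 8 regions each and Cd200 had 7, of which 4, 5 and 0 had a KOLPS H3K27ac peak. Cd86, the costimulatory ligand, had 6 with 3 met in KOLPS. Il12b, which encodes the shared p40 chain, had 5 regions, all with WT H3K4me1 and none with KO H3K27ac, and 3 had a KOLPS peak. At Socs3, a feedback inhibitor of cytokine signalling, 4 of 5 regions had a KO peak and 5 a KOLPS peak. Batf, a partner of Jun and IRF factors, had 4 regions with 0 KO and 4 KOLPS peaks. Ptgs2, which encodes cyclooxygenase-2, had 4 regions with none met in either CTCF-KO list.

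The 10 strongest gained peaks without p65 all held WT H3K4me1, 8 had a KOLPS H3K27ac peak and 2 a KO peak. WT SMC1 was at 4, WTLPS SMC1 at 7 and STAT5 at 0. The strongest of all, at chr7:24087906-24089650 in an intron 6.85 kb from the start of Zfp180, a zinc finger gene, had a fold of 13.8 in WTLPS and 5.0 in KOLPS and no peak in WT and KO. Repeats made up 91.4% of its central 500 bp, and over 50% in 2 of the 10. The region near Extl2 whose sequence is printed above, at chr3:116046391-116047823, had a WTLPS fold of 13.2 and a KOLPS fold of 5.92, and lay 37801 bp from the nearest WT H3K27ac peak. It held SMC1, CTCF and H3K27me3 in WT.
The region at chr2:136990112-136993207, near Slx4ip, had folds of 12.7 in WTLPS, 5.72 in KO and 8.33 in KOLPS. Near Ifit3, an interferon-induced gene, the region at chr19:34570350-34571911 had a fold of 12.3 in WTLPS and 8.33 in KOLPS, with none in KO. The region at chr5:100635052-100638574, near Coq2, had 12.3, 11.7 in KOLPS and 4.58 in KO, the smallest drop between genotypes among the 10. Near Cited2 (chr10:17675256-17678172) and Urgcp (chr11:5743743-5747043) the WTLPS fold was 11.8 and the KOLPS folds were 4.44 and 5.55. The Il12a region at chr3:68708694-68709386, 18.4 kb from the gene's start, also had 11.8 and 4.44. It held SMC1 and CTCF in WT, and a WTLPS p65 peak began 30 bp from its edge. Regions near Abcb5 (chr12:119098939-119100602) and Mc2r, on chromosome 18, had no H3K27ac peak in either CTCF-KO list. Folds in different lists rest on different background coverage and are set side by side as deposited.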

How the data were processed

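The authors aligned the reads to mm10 and called peaks with MACS2 against input. The submitters' processing notes name BWA 0.7.12, Picard 1.77, MACS2 2.1.2 and deepTools 3.1.3. The study's methods describe 2 biological replicates per condition, while 1 list per condition and antibody was used here. Each deposited list gives, per peak, a fold (ratio of pileup to background) and −log10 p and −log10 q. Summit fragments were recovered from fold and p with a tolerance of 0.002 in −log10 p, for peaks under 25. Read totals per library that the study states entered no calculation here.

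Genes were the 55413 of GENCODE vM21 (GRCm38, the same build as mm10), and bases came from GRCm38.p6. Overlap meant at least 1 bp. The main sets and shares, 95% Wilson and Newcombe intervals and paired Wald intervals were computed in Python 3.11.15 (numpy 2.4.6, pandas 2.3.3) and tested on simulated data. The shares carry counting error only. The members, gene lists and motifs were chosen with earlier results of these data known. The text names the 10 members with the highest −log10 q, the 8 coding genes nearest to the most members, and listed genes with members. Other printed listed genes and domains were picked from these after their values were seen. The CTCF core pattern was set on CTCF summits. Interval comparisons used no replicate test, since each group held 1 list.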

Additional observations from a re-analysis of the deposited data

Results flagged for a closer look

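A p65 peak of the stimulated CTCF-KO cells lay on 4 of the 4342 gained peaks that have no p65 peak in stimulated CTCF-WT cells, and no p65 peak of unstimulated CTCF-KO cells did. This was singled out as a signal in a list that the comparisons of shares above did not use. That is 0.0921% of them, below the 3.56% of all distal peaks and the 0.530% of kept peaks that a KOLPS p65 peak overlapped. The 4 regions were nearest to Tnfaip3, Ccdc14, Myo5b and Bcar3, with KOLPS p65 folds of 5.50, 6.60, 6.60 and 8.81. All had a KOLPS H3K27ac peak. The nearest WTLPS p65 peak was 132 bp away at the Tnfaip3 region and 834906 bp away at the Ccdc14 region.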

How the results depend on the processing

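Alternatives moved the set and its shares, while none of the 6 differences examined (KOLPS minus KO H3K27ac, and the 5 against gained peaks with p65) changed its call. The CTCF difference, with 0 in each interval, was above 0 except with no WT H3K27ac within 1000 bp, where it was -0.576 points. The number of gained peaks without p65 was 1942 with −log10 q of at least 5, 2568 with no WT H3K27ac within 1000 bp, 690 at 1000 bp or wider and 2582 with no p65 within 10 kb, the last chosen after seeing the data. In that order KOLPS H3K27ac was at 41.5%, 30.4%, 53.8% and 25.5%, and at 28.0% when the central 500 bp were searched. KO H3K27ac was at 22.7%, 15.2%, 25.1% and 15.8%, and at 17.2% in the central 500 bp. WT H3K4me1 was at 81.4%, 73.8% and 82.8% under the first 3 and 75.9% in the central 500 bp. WT SMC1 was at 14.9%, 12.5%, 17.7% and 14.8%, and 10.7% in the central 500 bp. WT STAT5 was at 4.74% (stricter q), 5.94% (wider) and 1.93% (central), and WT CTCF at 10.4% (wider) and 6.86% (central). The KOLPS minus KO difference ranged from 9.72 to 28.7 points, the KOLPS difference from gained peaks with p65 from -45.4 to -32.5, that of SMC1 from -32.7 to -17.2, that of STAT5 from -11.3 to -5.93 (central 500 bp), and that of CTCF reached 3.75. The cause of these moves was not tested. No paired analysis was possible because each group held 1 list, so replicates could be neither paired nor left out. The paired differences given are over regions. The lists limit each share to called peaks, and the H3K27ac libraries of CTCF-KO cells had a lower background coverage (0.748 and 0.801 fragments per base) than those of CTCF-WT cells (1.17 and 1.20).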
